A study of Mus musculus with 4 samples.

Results

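The genes described here are 10 genes of intraepithelial T lymphocytes, the T cells that sit between the epithelial cells of the gut. They encode the leukocyte phosphatase CD45 (Ptprc), the CD3 chains of the T cell receptor complex (Cd3d, Cd3e, Cd3g), the coreceptor chain CD8 alpha (Cd8a), the retention integrin chain (Itgae) and products of cytotoxic cells (Gzma, Gzmb, Ccl5, Nkg7). They were picked by symbol, with earlier results of these data known though by no threshold on values, and all 10 were found among the 24182 genes that the 2 deposited tables share. RNA had been sequenced from small intestinal crypts of male C57BL/6J mice aged 9 weeks, and the labels give 1 sample for each of 4 groups. These were fed without tetracycline, fasted for 24 hours without tetracycline, fed after 21 days of tetracycline, and fasted for 24 hours after 21 days of tetracycline. The stated interest of the series is how gene expression in fed and fasted mice changes when this antibiotic depletes what the submitters abbreviate AKK. Crypts were shaken off with a chelator and made into single cells with trypsin. The labels call the cells epithelial and mention no sort, so T cells present in the preparation contribute RNA to the bulk libraries.

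Intraepithelial lymphocytes are mostly CD8 T cells, many of them with a gamma delta T cell receptor. Their CD8 is often an alpha alpha homodimer, and they store granzymes in an armed state. The CD3 chains carry the signal of the T cell receptor into the cell. The integrin chain alpha E, from Itgae, pairs with beta 7 and binds E-cadherin on the neighbouring epithelial cell.

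Each table holds the authors' comparison of fasted with fed mice for 1 tetracycline state, with the direction read from the table's name. The deposited mean of a gene, an average of counts divided by a size factor per library, resolved into whole counts of 4 libraries per table, 2 fasted and 2 fed, although the labels list 1 sample per group. The libraries could not be tied to the labelled samples, so their values are given singly, numbered within a side by size factor, with no SD or test of their own. Nothing in the labels says whether the libraries of a side came from separate mice, and the p-values may measure technical spread. Summed over genes, the deposited means came to 65863261 normalized counts per library without tetracycline and 65327199 with it. Size factors ran from 0.93 to 1.09 without tetracycline and from 0.727 to 1.27 with it. The libraries with tetracycline stood further apart, chiefly on the fasted side. Between the fasted libraries, the log2 difference of all genes with a mean of at least 50 had an SD of 0.996, against 0.573 without tetracycline. Between the fed libraries it was 0.609, against 0.488 without tetracycline. In bulk RNA, fewer T cells and less RNA per T cell cannot be told apart.

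The label was compared with markers, among which Cd8a is itself a member. These markers do not tell intraepithelial T cells from other T cells, and B cell markers were also present in the preparation. Without tetracycline, the means of the authors' deposited table divided by exonic length in kilobases were 985 for Cd8a, 86.1 for Cd8b1, the CD8 beta chain, and 22.2 for Cd4, the coreceptor of helper T cells. Both receptor lineages were present: the same means per kilobase were 626 for Trac, the alpha chain constant region, 352 for Trdc, the delta chain, and 1919 for Trgc1, a gamma chain. The natural killer markers Ncr1 and Eomes were low. They are 2 of the 6 markers listed for natural killer and innate lymphoid cells, and levels of the others are not given here. Ncr1, an activating receptor of natural killer cells, had normalized counts of 3.67 and 6.45 in the fasted libraries and 10.9 and 17.1 in the fed libraries without tetracycline. Eomes, a transcription factor of these cells, had 0.917 and 0 in the fasted libraries and 0.992 and 3.01 in the fed libraries without tetracycline.

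On the GRCm38 build (mm10), the 3 CD3 genes lie in 1 cluster on chromosome 9. Cd3g (chr9:44969572-44980431, minus strand) and Cd3d (chr9:44981786-44987339, plus strand) point away from each other with 1354 bases between them, and Cd3e follows 11400 bases beyond Cd3d (chr9:44998740-45009627, minus strand). The other members are on 6 other chromosomes, at chr1:138062861-138175708 (Ptprc), chr6:71373427-71379173 (Cd8a), chr11:73090583-73147446 (Itgae), chr13:113093825-113100981 (Gzma), chr14:56258838-56262260 (Gzmb), chr11:83525778-83530518 (Ccl5) and chr7:43437073-43438249 (Nkg7). The values are for whole genes. Library preparation did not keep the strand, and 135 exonic bases of Cd3e are shared with the antisense gene Gm48719, so reads from those bases cannot be assigned.

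The members moved together over the libraries, and the 250 bases before the RefSeq start sites of 5 of them are therefore shown, those of the CD3 genes and the granzymes. Promoters were taken from RefSeq on GRCm38.p6, for 8 of the 10 members (all but Itgae and Ccl5). Capitals mark the RUNX letters TGTGGT, the ETS letters GGAAGT and the GATA letters AGATAA, each on either strand, and no capitals overlap.
Cd3g, chr9:44980432-44980681, minus strand: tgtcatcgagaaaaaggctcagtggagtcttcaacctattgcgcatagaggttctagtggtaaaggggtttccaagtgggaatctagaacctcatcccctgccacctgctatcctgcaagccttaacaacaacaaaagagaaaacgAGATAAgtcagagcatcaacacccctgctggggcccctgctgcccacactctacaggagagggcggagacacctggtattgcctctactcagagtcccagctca
Cd3d, chr9:44981536-44981785, plus strand: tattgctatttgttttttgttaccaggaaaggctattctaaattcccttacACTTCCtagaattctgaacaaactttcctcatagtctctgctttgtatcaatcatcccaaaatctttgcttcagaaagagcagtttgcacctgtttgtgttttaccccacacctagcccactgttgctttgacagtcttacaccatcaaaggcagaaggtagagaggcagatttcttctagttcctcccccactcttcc
Cd3e, chr9:45009612-45009861, minus strand: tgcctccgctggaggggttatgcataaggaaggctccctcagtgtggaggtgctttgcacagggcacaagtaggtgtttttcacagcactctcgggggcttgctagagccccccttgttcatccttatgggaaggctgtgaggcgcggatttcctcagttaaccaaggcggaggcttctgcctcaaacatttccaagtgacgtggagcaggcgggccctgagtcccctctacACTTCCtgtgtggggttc
Gzma, chr13:113100982-113101231, minus strand: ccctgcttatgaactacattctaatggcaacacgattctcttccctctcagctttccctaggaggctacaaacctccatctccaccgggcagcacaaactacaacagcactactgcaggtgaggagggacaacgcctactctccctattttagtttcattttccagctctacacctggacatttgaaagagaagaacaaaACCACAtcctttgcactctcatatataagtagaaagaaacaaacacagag
Gzmb, chr14:56262335-56262584, minus strand: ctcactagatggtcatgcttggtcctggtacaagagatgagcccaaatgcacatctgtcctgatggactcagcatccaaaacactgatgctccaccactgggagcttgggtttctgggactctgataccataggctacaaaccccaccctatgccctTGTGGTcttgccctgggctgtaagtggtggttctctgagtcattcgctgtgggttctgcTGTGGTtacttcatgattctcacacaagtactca
The 8 members have 9 promoters, since Ptprc has a further one. The RUNX letters stood 50 bases before the start of Gzma, 93 and 34 bases before Gzmb and 83 bases before Nkg7. They were thus in 3 of 9 promoters (3 of 8 members), against 14% of all 32851 promoters. The ETS letters stood in 4 of 9 promoters (3 of 8 members, Cd3d, Cd3e and Ptprc), against 19.7% of all promoters. The GATA letters stood in 2 of 9 promoters (2 of 8 members, Cd3g and Ptprc), against 9.99%. None of the 3 was found in this window of Cd8a. Such matches are letters only, and they describe neither binding nor a cause.

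Without tetracycline, all 10 genes were lower in the fasted than in the fed mice, by 1.36-fold (Ptprc) to 2.01-fold (Cd3g), as were 49.5% of all genes, but none passed the authors' adjusted p threshold of 0.05. The authors' deposited table gives log2 changes of -1.01 to -0.44 with a median of -0.74, against a median of 0.01 over all 18100 genes tested. Their DESeq2 test called 0 of 10 members, where it called 2.27% of all genes in either direction and 1.22% as lower. At an unadjusted p under 0.05, 6 of 10 were lower in the deposited table, against 6.21% of all genes. In 9 of 10 genes both fasted libraries lay below both fed libraries, which held for 22.9% of all genes.

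Among the chains of the receptor complex, Cd3g had 948 and 1902 in the fasted libraries and 2473 and 3266 in the fed libraries, in normalized counts. The fasted libraries lay below the fed ones with no overlap. The authors' deposited table gives a log2 change of -1.01 ± 0.36 (SE), with p = 0.00497 and adjusted p = 0.132, the smallest of the 10. Cd3d, the CD3 delta chain, had 267 and 593 in the fasted libraries and 702 and 1019 in the fed libraries. Cd3e, the CD3 epsilon chain, had 1056 and 2157 in the fasted libraries and 2721 and 3171 in the fed libraries. Both were lower in every fasted library, and their log2 changes in the authors' deposited table were -1.0 ± 0.40 and -0.88 ± 0.36 (SE), with adjusted p = 0.237 and 0.245.

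The coreceptor and surface genes had smaller estimates. Cd8a had 1888 and 3957 in the fasted libraries and 3907 and 4571 in the fed libraries. It was the 1 member with overlap, since fasted library 2 stood just above fed library 1. The authors' deposited table gives Cd8a a log2 change of -0.54 ± 0.36 (SE), adjusted p = 0.665. Itgae had 1354 and 2654 in the fasted libraries and 2916 and 2981 in the fed libraries. Its fed libraries were almost equal, and fasted library 2 was near them. The deposited log2 change of Itgae in the authors' deposited table was -0.56 ± 0.34 (SE), adjusted p = 0.615. Ptprc, which all white blood cells express, had 1603 and 2704 in the fasted libraries and 2794 and 3066 in the fed libraries. Here too fasted library 1 stood lowest, and the authors' deposited table gives -0.44 ± 0.32 (SE), adjusted p = 0.703.

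Gzma, Ccl5 and Gzmb had the highest mean normalized counts of the members. Gzma, which encodes the serine protease granzyme A, had 7973 and 15279 in the fasted libraries and 16621 and 22880.0 in the fed libraries. Gzmb, encoding granzyme B, had 3607 and 6417 in the fasted libraries and 6708 and 8748 in the fed libraries. For both granzymes fasted library 2 came close below fed library 1. Log2 changes in the authors' deposited table were -0.76 ± 0.35 (SE) for Gzma and -0.62 ± 0.33 (SE) for Gzmb, with adjusted p = 0.35 and 0.495. Ccl5, a chemokine that draws T cells, had 2473 and 4137 in the fasted libraries and 4803 and 7712 in the fed libraries. Nkg7, a membrane protein of cytotoxic granules, had 559 and 1027 in the fasted libraries and 1112 and 1481 in the fed libraries. Neither gene overlapped between the groups, and the authors' deposited table gives log2 changes of -0.92 ± 0.35 (SE) and -0.71 ± 0.35 (SE), with adjusted p = 0.173 and 0.436.

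**Figure D1:**
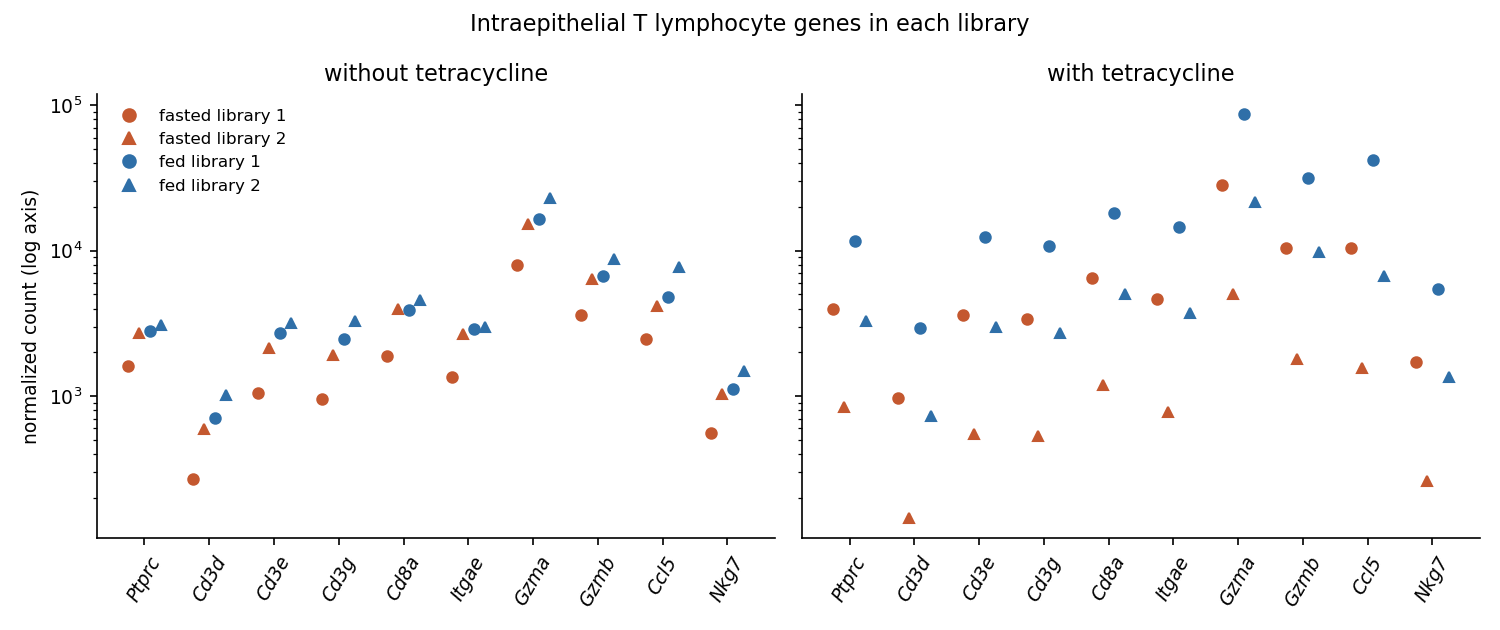
Normalized counts of the 10 genes in each recovered library, on a log axis, without tetracycline (left) and with it (right); colours give fasted and fed, and circle and triangle the library within a side. On the left, fasted libraries lie below fed ones for 9 of 10 genes; on the right, fed library 1 is highest and fasted library 2 lowest for every gene.

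With tetracycline the estimates were larger and far less certain. All 10 were again lower in the fasted mice, by 3.02-fold (Cd8a) to 4.08-fold (Ccl5), as were 51.8% of all genes. The authors' deposited table gives log2 changes of -2.03 to -1.59, median -1.75, with standard errors of 0.79 to 0.94, against a median change of -0.02 over all 17993 genes tested. Their DESeq2 test called 0 of 10 members, where it called 0.6% of all genes in either direction and 0.267% as lower. At an unadjusted p under 0.05, 8 of 10 were lower in the deposited table, against 3.06% of all genes. The groups overlapped in all 10 genes; both fasted libraries lay below both fed ones in 15.5% of all genes.

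The order of the libraries was the same for all 10 genes. Cd3g had 3390.0 and 529.7 in the fasted libraries and 10761 and 2718 in the fed libraries. Cd3d had 965 and 144 in the fasted libraries and 2951 and 726 in the fed libraries. Cd3e had 3603 and 549 in the fasted libraries and 12469 and 2980.1 in the fed libraries. For these 3 chains, fed library 1 was highest, fasted library 2 lowest, and fasted library 1 was above fed library 2. Their log2 changes in the authors' deposited table were -1.78 ± 0.86, -1.73 ± 0.88 and -1.90 ± 0.88 (SE), with adjusted p = 0.885, 0.937 and 0.82.

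Cd8a had 6474 and 1187 in the fasted libraries and 18033 and 5073 in the fed libraries with tetracycline. Itgae had 4670.3 and 775 in the fasted libraries and 14557 and 3712 in the fed libraries. Ptprc had 3966 and 846 in the fasted libraries and 11603 and 3287 in the fed libraries. The same library order as for the CD3 chains appeared in the coreceptor, the integrin and CD45. In the authors' deposited table their log2 changes were -1.59 ± 0.82, -1.75 ± 0.85 and -1.63 ± 0.79 (SE), with adjusted p = 0.941, 0.891 and 0.891.

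Gzma had 28336 and 4998 in the fasted libraries and 87493 and 21707 in the fed libraries with tetracycline. Gzmb had 10391 and 1798 in the fasted libraries and 31429.8 and 9739.5 in the fed libraries. For Gzma the libraries within each side lay further apart than the group means did, and for Gzmb the fasted ones did. Ccl5 had 10461 and 1553 in the fasted libraries and 42356 and 6649 in the fed libraries. Nkg7 had 1724 and 259 in the fasted libraries and 5420.2 and 1358 in the fed libraries. Ccl5 had the widest spread of all members, 27.3-fold from the lowest to the highest library, and Ptprc the narrowest, 13.7-fold; without tetracycline the members' spreads were 1.91-fold to 3.82-fold. The authors' deposited table gives log2 changes of -1.71 ± 0.84 for Gzma, -1.76 ± 0.82 for Gzmb, -2.03 ± 0.94 for Ccl5 and -1.77 ± 0.87 for Nkg7 (SE), with adjusted p from 0.82 to 0.914.

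The median change of the members rested on single libraries in both tables. Without tetracycline it was -0.35 when fasted library 1 was left out and -1.26 when fasted library 2 was. With tetracycline it was -0.45 without fed library 1, -0.97 without fasted library 2, and -3.61 without fasted library 1. All 10 members stayed below 0 in each of these settings. Fed library 1 exceeded fed library 2 by 3.23-fold (Gzmb) to 6.37-fold (Ccl5) with tetracycline, and fasted library 1 exceeded fasted library 2 by 4.69-fold (Ptprc) to 6.73-fold (Ccl5).

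Whether the fasting change itself differed with tetracycline was tested as the difference of the 2 deposited changes with a Wald test. Differences, with tetracycline minus without, ran from -1.19 (Itgae) to -0.72 (Cd3d) on the log2 scale with standard errors of 0.85 to 1.0. None of the 10 passed; unadjusted p was 0.166 to 0.455, adjusted p was 1.0 for each with Benjamini-Hochberg adjustment, and 0.0228% of all 17571 genes passed. For Cd3e the 95% interval of the difference was -2.87 to 0.83, and for Gzma it was -2.74 to 0.84. Both intervals include 0 and reach further below it than above.

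The tables share no library, and a combined estimate, chosen after the data were seen, weighted the 2 changes by their inverse variance. It lies near the values without tetracycline, whose errors are smaller. By this Wald test with Benjamini-Hochberg adjustment over all 17571 genes, 4 of 10 members fell with fasting, where 2.52% of all genes fell. Cd3g fell by 1.12 ± 0.33 (SE) on the log2 scale (adjusted p = 0.0221), Ccl5 by 1.05 ± 0.32 (adjusted p = 0.0316), Cd3e by 1.02 ± 0.33 (adjusted p = 0.045) and Cd3d by 1.13 ± 0.37 (adjusted p = 0.0475). The called set is thus the whole CD3 trio and the chemokine. Gzma had a combined log2 change of -0.90 ± 0.32 (SE) with adjusted p = 0.087, and Ptprc, at the other end, had -0.61 ± 0.29 (SE) with adjusted p = 0.298. The count was 2 when all genes with a p entered the adjustment and 0 at a threshold of 0.01.

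**Figure D2:**
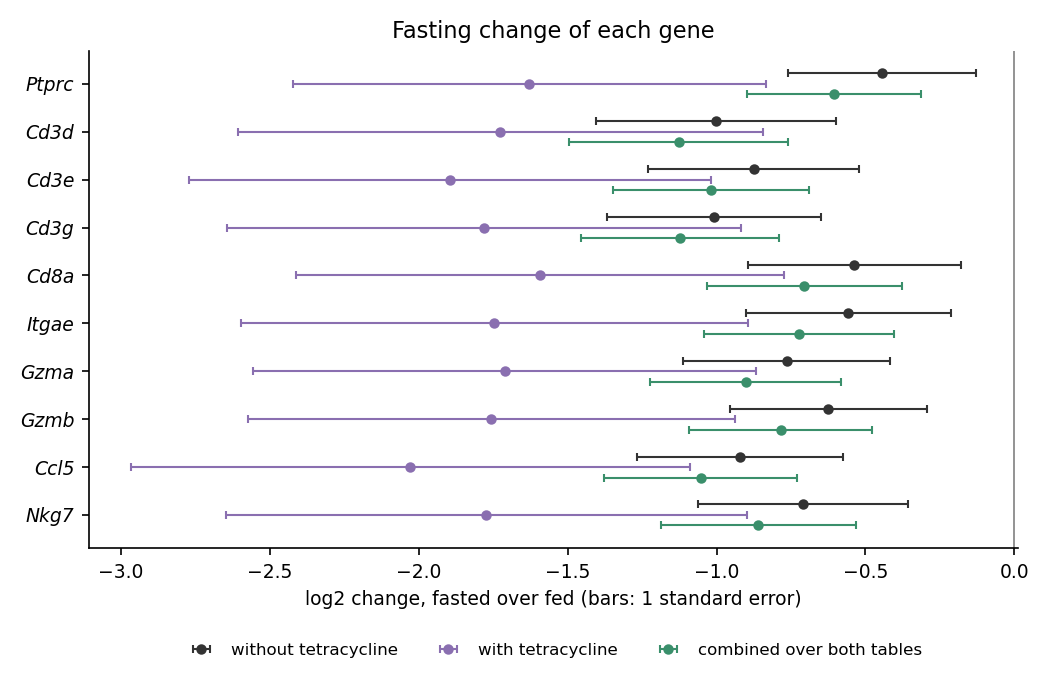
Log2 change, fasted over fed, of each gene in the table without tetracycline, in the table with tetracycline and combined over both; points are estimates and bars 1 standard error. All estimates lie below 0, and the bars with tetracycline, at 0.79 to 0.94, are the widest.

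Per kilobase of exon, the order of the members' levels was steep. Without tetracycline, the means of the authors' deposited table divided by exonic length were 15595 for Gzma, 4981 for Ccl5 and 4436 for Gzmb. Nkg7 and Cd8a followed at 1143 and 985. The remaining 5 genes, from Cd3g at 657 down to Ptprc at 139 per kilobase, were lowest. Ccl5 and Gzmb changed order from library to library, as did Cd3e and Itgae, so these neighbours do not differ beyond their spread; the other neighbours kept their order in all 4 libraries. Levels in the 2 tables were scaled separately. By the means of the deposited table with tetracycline, divided in the same way, Gzma was again highest at 35421 per kilobase and Ptprc lowest at 269.

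The levels of the members ranged 13.7-fold to 27.3-fold over the libraries with tetracycline, and their proportions to each other within a library ranged far less. Counted against Cd3e in the same library, Cd3g ran from 0.863 to 1.03 over all 8 libraries, Cd3d from 0.237 to 0.321 and Nkg7 from 0.409 to 0.529. The ratio of Gzma to Gzmb counts ran from 2.21 to 2.78. Gzma ran from 6.11 to 9.11 counts per count of Cd3e and Gzmb from 2.46 to 3.42. Cd8a ran from 1.44 to 2.16 and Itgae from 0.94 to 1.41. The widest ranges were those of Ptprc, from 0.931 to 1.54, and Ccl5, from 1.77 to 3.40. For 3 genes, Cd8a, Itgae and Nkg7, each fasted library was above each fed library of its table in both tables. Cd3e, the shared denominator, fell more than these 3 genes in both deposited tables, with log2 changes of -0.88 and -1.90. A gene that falls less than Cd3e has a higher ratio when fasted, and no share over all genes was computed for these ratios. The other ratios to Cd3e overlapped in at least 1 table, apart from Cd3g, whose fasted libraries were below the fed ones without tetracycline and above them with it. These ratios were not tested.

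**Figure D3:**
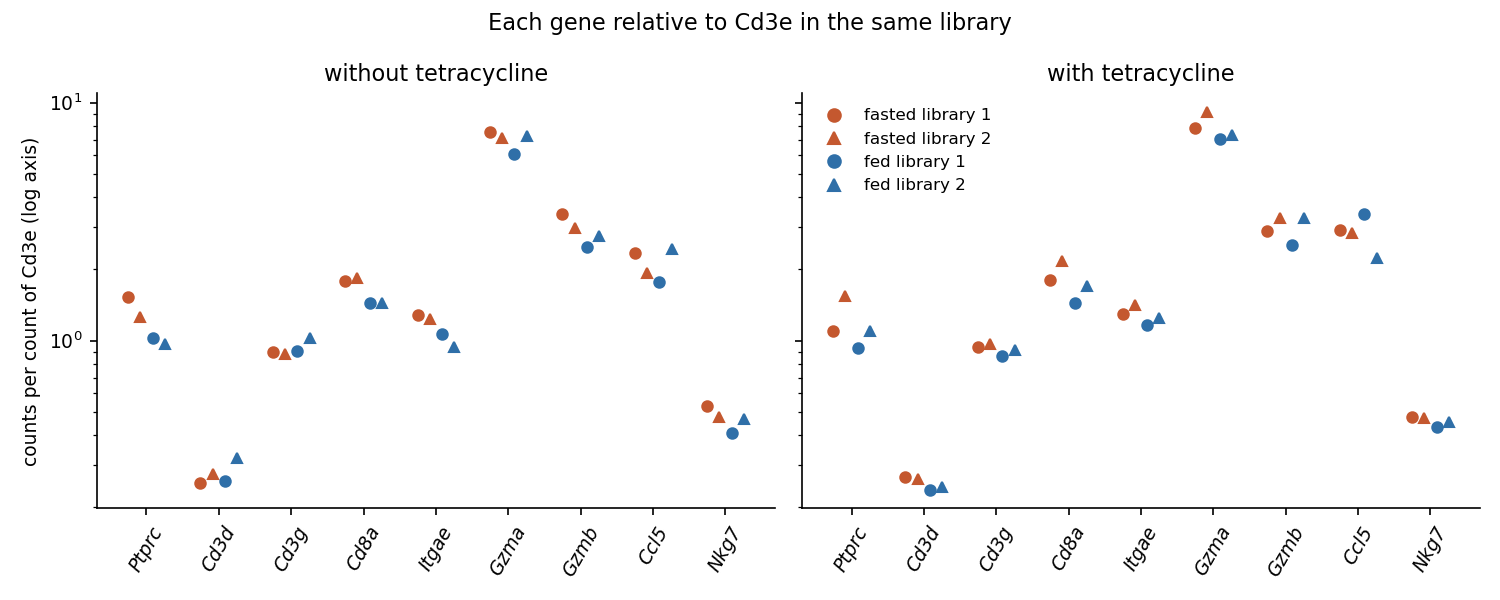
Counts of each gene divided by the counts of Cd3e in the same library, on a log axis, without tetracycline (left) and with it (right), marked by group and library. Cd3g stays between 0.863 and 1.03, while Cd8a, Itgae and Nkg7 are higher in each fasted library than in each fed library of their table.

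Over the 8 libraries, after centring log2(normalized count + 1) within each table, each member correlated with the mean of the other members at a Pearson r of 0.99 (Ccl5) to 0.999 (Gzma). The points share their libraries and each table's 4 size factors, so this is a description. Of 12771 genes with a mean of at least 50 in both tables, 562 had an r of at least 0.95 with the members' mean and 168 of at least 0.99. The 10 most alike were Fmnl1, Itgb2, Sp110, Arhgap30, Gimap4, Cyth4, Def6, Trac, Trgc4 and Il2rg, with r from 0.99890 to 0.99994. Itgb2 encodes the beta 2 integrin chain of leukocytes, Trac and Trgc4 constant regions of T cell receptor chains, and Il2rg the common gamma chain of cytokine receptors.

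A wider set of 82 T cell genes in 7 groups was mostly lower in the fasted mice as well. Without tetracycline, 72 of 81 tested were lower in the fasted mice, with a median log2 change of -0.67 in the authors' deposited table, where 49.5% of all genes were lower. None was called, against 1.22% of all genes called lower, and 28 were lower at an unadjusted p under 0.05, against 6.21%. With tetracycline, 80 of 82 were lower, median -1.59, against 51.8% of all genes. None was called, against 0.267% of all genes called lower, and 25 were lower at an unadjusted p under 0.05 in the deposited table, against 3.06%. The difference between the tables was called for 0 of 81, and 1 had an unadjusted p under 0.05 by the Wald test, where 1.05% of all genes did.

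Among the receptor constant regions, with the zeta chain, all 8 genes were lower in both deposited tables, with medians of -0.67 and -1.67. The gamma and beta constant regions have near-identical copies, as do the alpha globin genes among the red cell markers, so their single values are uncertain. Trgc1 had normalized counts of 857 and 1965 in the fasted libraries and 1904 and 2366 in the fed libraries without tetracycline, with overlap. Trdc had 697 and 1584 in the fasted libraries and 1565 and 1602 in the fed libraries. The authors' deposited tables give Trdc log2 changes of -0.47 ± 0.38 (SE) without and -1.65 ± 0.88 (SE) with tetracycline, and Trgc1 changes of -0.60 ± 0.38 and -1.68 ± 0.84 (SE). In the coreceptor and costimulatory group, 13 of 14 were lower without tetracycline and 14 of 14 with it. Cd7, a surface receptor of T cells, had 2291 and 4781 in the fasted libraries and 5015 and 7072 in the fed libraries without tetracycline and 8487 and 1425 in the fasted libraries and 24314 and 6171 in the fed libraries with it. Cd96, a receptor of T and natural killer cells, had a change of -0.81 ± 0.37 (SE) without tetracycline in the authors' deposited table, adjusted p = 0.346. Of 16 signalling genes, 14 were lower without tetracycline and 16 with it. Lck, the kinase that phosphorylates the CD3 chains, had 663 and 1483 in the fasted libraries and 1775 and 2053 in the fed libraries without tetracycline. Its groups did not overlap there, and the authors' deposited tables give -0.84 ± 0.38 and -1.74 ± 0.85 (SE). Fyb, an adaptor protein gene, went the other way without tetracycline, at 0.26 ± 0.27 (SE), and had -0.92 ± 0.64 (SE) with it in the authors' deposited tables.

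Of 13 tested genes for further effectors and cytokines, all were lower without tetracycline, and 13 of 14 with it. Srgn, the proteoglycan core of cytotoxic granules, had deposited changes of -0.63 ± 0.38 and -1.37 ± 0.82 (SE), and Ctsw, a cathepsin of cytotoxic lymphocytes, -0.59 ± 0.37 and -1.47 ± 0.84 (SE), in the authors' deposited tables. Of 11 homing and retention receptors, 8 and 11 were lower. Itgb7, the partner chain of Itgae, had 472 and 830.2 in the fasted libraries and 942 and 1151 in the fed libraries without tetracycline, with no overlap. Itga1, a collagen receptor chain, had 1501 and 1684 in the fasted libraries and 1619.6 and 1167 in the fed libraries and overlapped. Of 7 cytokine receptors, 4 and 6 were lower, and Il2rb, a shared receptor chain for interleukins 2 and 15, had 1309 and 2497 in the fasted libraries and 3052 and 3992 in the fed libraries without tetracycline. Of 12 lymphoid transcription factors, all were lower in both tables; Ets1 had changes of -0.68 ± 0.34 and -1.61 ± 0.82 (SE), and Bcl11b -0.01 ± 0.29 and -0.22 ± 0.36 (SE), in the authors' deposited tables.

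By the combined Wald test, 8 of 81 genes of the T cell lists fell, against 2.52% of all genes. All 8 B cell markers fell by the same test, and which cells expressed the T cell list genes was not tested. The T cell list genes called were Xcl1 (adjusted p = 0.00614), Cd160 (0.007), Il21r (0.00795), Sla2 (0.0198), Il2rb (0.0323), Gpr55 (0.0365), Runx3 (0.0378) and Rhoh (0.0498), named after their values were seen. Xcl1 encodes a chemokine that attracts dendritic cells, Cd160 a receptor found on intraepithelial lymphocytes, and Runx3 a transcription factor of CD8 T cells. Xcl1 had 154 and 285 in the fasted libraries and 421 and 575 in the fed libraries without tetracycline, and 333 and 53.7 in the fasted libraries and 924 and 517 in the fed libraries with it. It was lower in both fasted libraries of each table.

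On the epithelial side of the contact, median changes were above 0, but the genes went both ways. Of 13 genes for epithelial ligands, adhesion molecules and cytokines that act on these T cells, 6 were lower without tetracycline and 4 with it. Of all genes, 49.5% and 51.8% were lower. None of the 13 was called in either table, where 2.27% and 0.6% of all genes were called in either direction. None had an unadjusted p under 0.05 in the deposited tables, and the medians there were 0.19 and 0.21. Cdh1, encoding E-cadherin, the ligand of the Itgae integrin, had 47197 and 43706 in the fasted libraries and 42941 and 36553 in the fed libraries without tetracycline. Ccl25, the chemokine that recruits T cells to the small intestine, had deposited changes of -0.11 ± 0.26 and 0.70 ± 0.45 (SE) in the authors' deposited tables. Summed over the 13 genes, the fasted library lowest for the members, library 2 with tetracycline, was the highest of its table, at 168548.

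Markers of several other cell types were lower in the fasted mice too, though not those of all. Summed over the 10 members, normalized counts were 21728 and 40827 in the fasted libraries against 44756 and 58894 in the fed libraries without tetracycline, and 73980.5 and 12639.6 in the fasted libraries against 237074 and 57951 in the fed libraries with it. The 8 B cell markers summed to 578 and 1097 in the fasted libraries against 2853 and 5022 in the fed libraries without tetracycline, and to 2484 and 103 in the fasted libraries against 7617 and 1732 in the fed libraries with it. All 8 B cell markers were called lower without tetracycline in the authors' deposited table, median -2.20, where 1.22% of all genes were, and none with it, median -1.93, where 0.267% were. For Cd79a, a chain of the B cell receptor, that table gives -2.46 ± 0.43 (SE), adjusted p = 4.21e-06. In B cells, too, fed library 1 was highest and fasted library 2 lowest with tetracycline.

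For the counts that follow, 1.22% of all genes were called lower without tetracycline and 0.267% with it. In either direction, 2.27% and 0.6% were called, and 49.5% and 51.8% of all genes were lower. Of 10 macrophage and monocyte markers, Lyz2 alone was called, lower without tetracycline, and 9 of 10 were lower in each table. Of 4 plasma cell markers tested, Jchain and Mzb1 were called lower without tetracycline. Of 8 stromal markers, the collagen genes Col1a1, Col1a2 and Col3a1 were called lower without tetracycline. Of 6 mast cell markers (5 tested with tetracycline), the protease genes Mcpt1 and Mcpt2 were called lower without tetracycline, and Mcpt1 also with it. For Mcpt1 the authors' deposited tables give -1.98 ± 0.33 and -2.40 ± 0.62 (SE), with adjusted p = 9.42e-07 and 0.0263, and both fasted libraries lay below both fed ones in each table. All 4 red cell markers tested were called lower without tetracycline, median -2.63 in the deposited table, and none with it, median -1.33. No dendritic, natural killer, neutrophil or endothelial marker was called. With tetracycline, 5 of 5 dendritic and 3 of 3 endothelial markers tested were lower in the authors' deposited table. The dendritic markers summed to 924 and 131 in the fasted libraries against 2302 and 676 in the fed libraries with tetracycline, and the endothelial ones to 416 and 111 in the fasted libraries against 747 and 301 in the fed libraries, in the same library order as the members. The 4 natural killer and innate lymphoid markers tested had median changes of -0.23 and -0.02 in the authors' deposited tables, with 2 of 4 lower and 2 of 4 higher in each. The 5 neutrophil markers were low, summing to 75.3 to 163 normalized counts per library without tetracycline and 49.5 to 199 with it. Only 3 of them were tested without tetracycline and 2 with it. Their sum differed, fasted over fed, by 0.67 without tetracycline and by -0.38 with it on the log2 scale.

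The 10 epithelial markers had medians of 0.01 and 0.25 in the authors' deposited tables. None was called, where 2.27% and 0.6% of all genes were called in either direction. Their summed means changed by -0.16 and 0.12 on the log2 scale. Relative to that sum the members' median changes were -0.58 without and -1.87 with tetracycline. Krt20, a keratin of mature enterocytes, had 111556 and 34867 in the fasted libraries and 59606 and 102158 in the fed libraries without tetracycline, and 18971 and 70746 in the fasted libraries and 82625 and 57777 in the fed libraries with it. Krt20 was picked after its values were seen. Between the fasted libraries of each table, Krt20 was higher in the one where the members were lower. Between the fed libraries of each table, Krt20 was higher where the members were higher. The other epithelial markers with recovered counts, summed, had the opposite order to Krt20 between the fasted libraries without tetracycline. The same held between the fed libraries with tetracycline. The part of B cells, red cells, stroma or enterocyte content in the members' values was not tested.

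**Figure D4:**
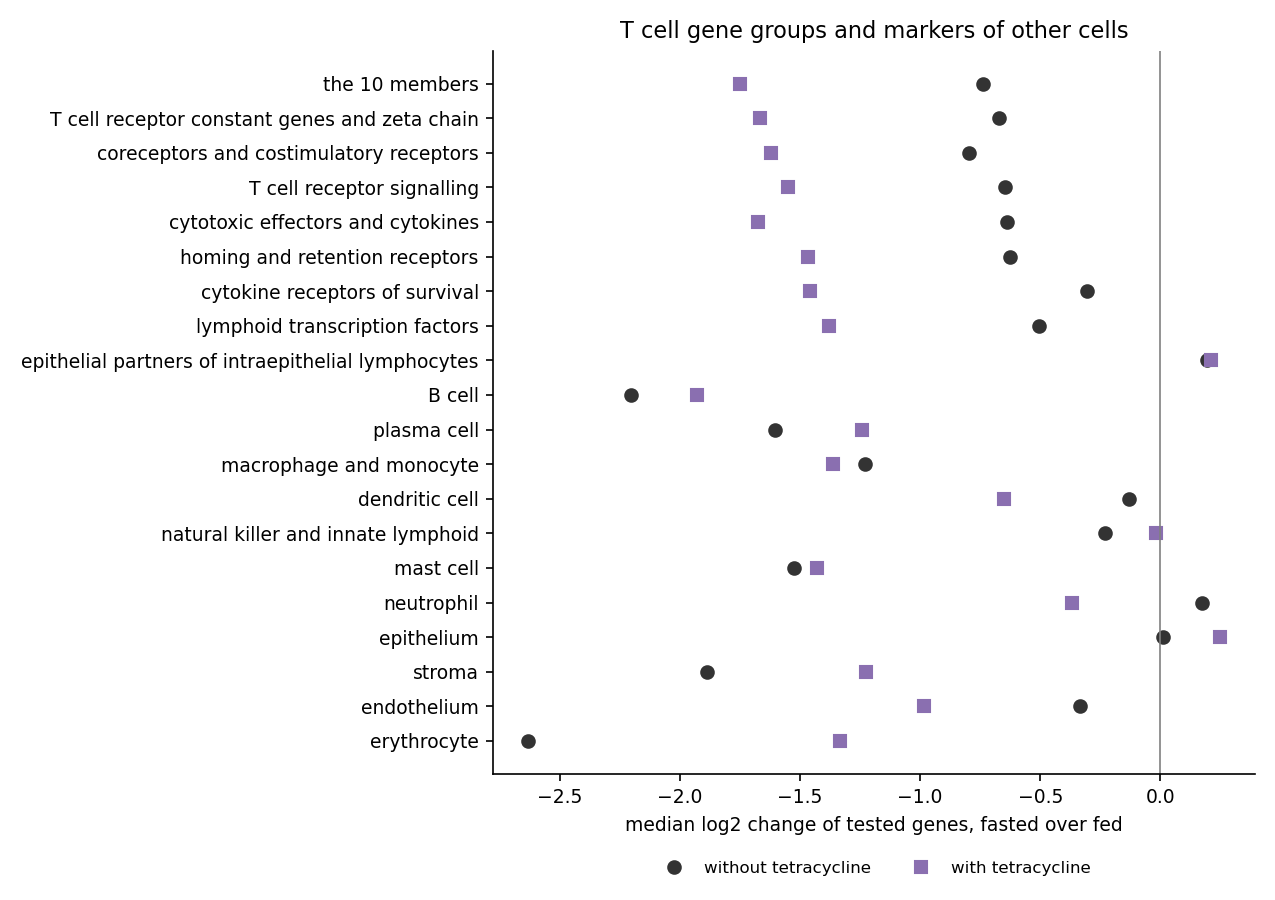
Median log2 change, fasted over fed, of the tested genes of each group, from the authors' deposited tables without (circles) and with tetracycline (squares). The members and all 7 T cell groups lie below 0 in both tables, as do B cells at -2.20 and -1.93, while the epithelial partners lie at 0.19 and 0.21.

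**Figure D5:**
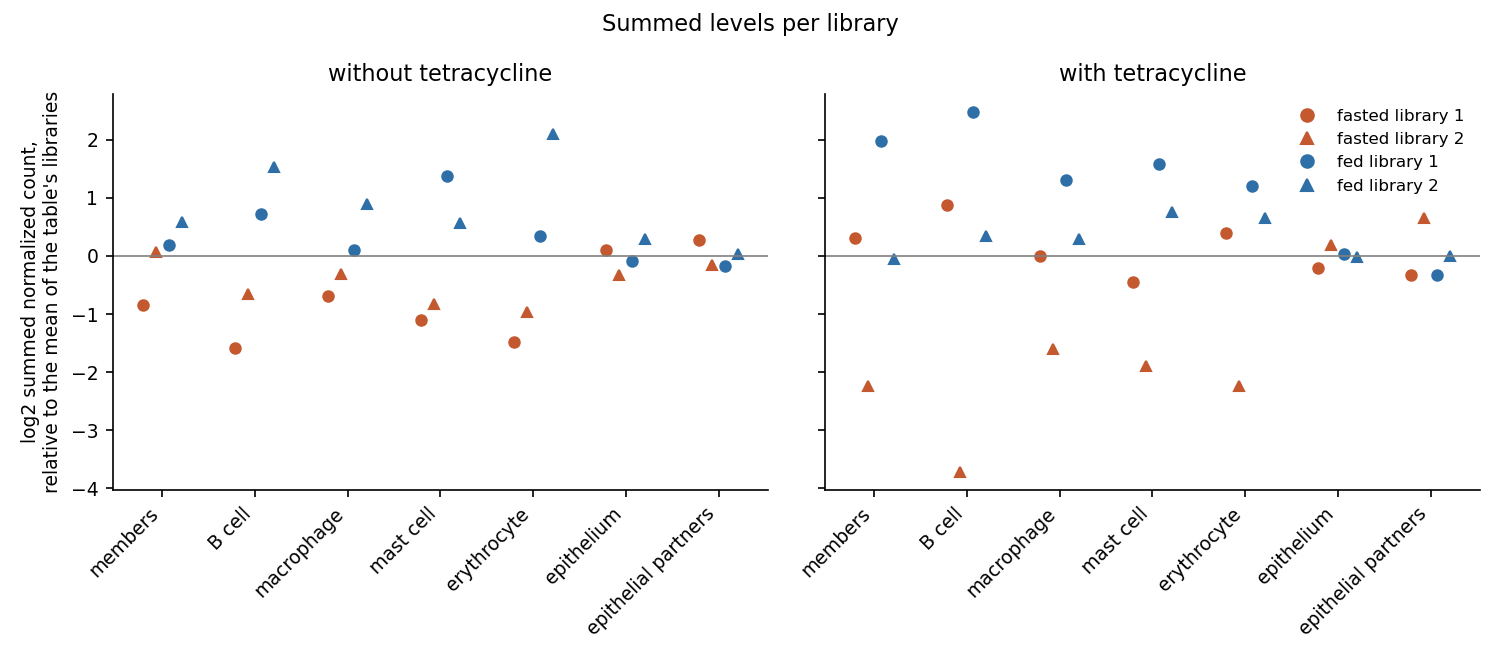
Summed normalized counts per library on the log2 scale, relative to the mean of the 4 libraries of a table, for the members, markers of B cells, macrophages, mast cells, red cells and epithelium (6 markers with recovered counts) and the epithelial partners. With tetracycline, fed library 1 is highest and fasted library 2 lowest for the members, B cells, macrophages, mast cells and red cells.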

How the data were processed

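Salmon and DESeq2 are named, with the mm10 build, in the submitters' processing notes, without versions. The 2 deposited tables hold, per the file headers, a mean of normalized counts (a signal), a log2 fold change with its standard error, a Wald statistic (a score) and p-values with adjusted p-values, all made by the authors. Of the tables' per-sample columns, 0 were left unused; the tables hold none. No column states the direction; the tables' names put the fasted group first, and fold changes were taken as fasted over fed. A refit with the numerator group as reference level differed from the deposited log2 changes by a median of 1.23e-10 and 6.88e-10, and with the denominator group by 8.56e-07 and 1.86e-06, over genes with a mean of at least 1000.

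Each deposited mean is a sum of whole counts, each times a step fixed by the library's size factor, so counts were solved from its 15 significant digits and checked against the deposited fold change. This resolved 25267 of 25522 genes (99.0%) without tetracycline and 25692 of 26085 (98.5%) with it, including all 10 members. The recovery was tested on simulated data. Recovered libraries match no labelled sample by name, so, beyond the refit that checked the recovered counts, no count model was used to test them; the authors' tests were used as deposited. The differences between tables and the combined changes were tested with Wald tests (Python 3.11.15, scipy 1.17.1) over the 17571 genes with an adjusted p in both tables, with Benjamini-Hochberg adjustment; the combined test was added after seeing the data. Exonic lengths came from a GRCm38 annotation. Folds between groups are ratios of the mean recovered normalized counts, while log2 changes are those of the authors' deposited tables; levels per kilobase are deposited means divided by exonic length.

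The text names all 10 members, list genes that passed a test in either table or otherwise the most abundant pair per list, and the 10 genes most alike; 2 list genes are not reported here. Other genes, among them Krt20, were named after their values were seen. The members and lists were chosen with earlier results of these data known.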

Additional observations from a re-analysis of the deposited data

How the results depend on the processing

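No member was called in either table at adjusted p thresholds of 0.01, 0.05 and 0.10, over genes with a mean of at least 50 or over all genes with a p, and none in the test of the difference, also with its statistic divided by its robust SD of 0.714. Of the other T cell genes, 3 passed at 0.10 without tetracycline (Il21r, Xcl1 and Cd160, named after their values were seen), as did 1.76% of all genes as lower. The combined count of 4 members became 0 at 0.01, 2 over all genes with a p, 4 over genes with a mean of at least 50 and 5 at 0.10, where 1.27%, 1.6%, 2.9% and 3.73% of all genes were called lower. Leaving out each library in turn gave median changes of the members from -1.26 to -0.35 without tetracycline and from -3.61 to -0.45 with it, with all 10 below 0. Pseudocounts of 1 and 10, centring and scaling to the epithelial sum moved no member by more than its SE; the combined test was not repeated without single libraries. No paired analysis was possible because the recovered libraries carry no replicate numbers. The deposited means leave counting error small, the lowest member mean being 645, so the spread between libraries sets the precision.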
